A study of Mus musculus with 8 samples.

Results

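Transcripts of the 5 kainate receptor subunit genes (Grik1, Grik2, Grik3, Grik4 and Grik5) and of their 2 auxiliary subunit genes (Neto1 and Neto2) were examined in the ribosome-associated RNA of cortical interneuron synapses. These 7 genes were chosen by symbol among the 56576 genes of the deposited table, and each symbol matched 1 gene. Grik1 and Neto1 were lower in Erbb4 conditional mutants than in controls by the study's thresholds for a call, which are an unadjusted p no higher than 0.05 and a change of 1.5-fold or more. The mutant level, on a log scale, was 0.56-fold of the control level for Grik1 and 0.64-fold for Neto1, but neither gene passed adjustment over all genes. Grik4 and Grik5, the high-affinity subunits, had log2 fold changes of -0.13 and -0.02. The values of the 2 genotypes overlapped for all 7 genes.

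The mice carried Lhx6-Cre and the Rpl22HA/HA allele in both genotypes, so that ribosomes of Cre-expressing cells bore a hemagglutinin (HA) tag, and they were studied at P15. There were 4 libraries from controls with the genotype Lhx6-Cre;ErbB4+/+;Rpl22HA/HA. Another 4 came from Erbb4 conditional mutants of the genotype Lhx6-Cre;ErbB4F/F;Rpl22HA/HA, where ErbB4F/F denotes an Erbb4 allele that Cre inactivates. Lhx6-Cre labels the interneuron lineage of the medial ganglionic eminence (MGE) and preoptic area, which includes both parvalbumin (PV+) and somatostatin (SST+) interneurons, so the libraries average over these types. Tagged ribosomes were pulled down from a lysate of all cortical synaptosomes, in which untagged RNA of other cells is also present. The samples are bulk, so fewer synaptosomes of a cell type and less RNA per synaptosome cannot be told apart.

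Kainate receptors are glutamate-gated cation channels made of 4 subunits. GluK1, GluK2 and GluK3 (from Grik1, Grik2 and Grik3) form channels alone or together and are called primary subunits, whereas GluK4 and GluK5 (from Grik4 and Grik5) bind kainate with high affinity and reach the surface only beside a primary subunit. Neto1 and Neto2 are single-pass membrane proteins that slow the decay of kainate receptor currents and influence where the receptors are placed. In the cortex and hippocampus, GluK1 is best known from interneurons, and kainate receptors act both at excitatory synapses and on transmitter release.

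The pore-lining segment is where the subunits are most alike, and the Q/R site within it is shown here because it ties the family to a gene examined below, the RNA-editing enzyme Adarb1. The windows of 30 bases are mouse transcript sequence, 5′ to 3′, from the GENCODE M21 annotation of GRCm38 (the build also called mm10), and the capitals mark the codon of the Q/R site.
Grik1: gttggagctctcatgCAGcaaggatcggag
Grik2: gttggagctctcatgCAGcaaggttctgag
Grik3: atgggctccctgatgCAGcaaggatctgaa
Grik4: gttggaggcttcatgCAGcaaggctccact
Grik5: gtgggtggcttcatgCAGcagggctcggag
The codon, which encodes glutamine, lies at chr16:87940542-87940544 on the minus strand in Grik1, chr10:49244329-49244331 (minus) in Grik2, chr4:125691207-125691209 (plus) in Grik3, chr9:42547623-42547625 (minus) in Grik4 and chr7:25022497-25022499 (minus) in Grik5. It is in a coding exon in each gene, and in Grik1, Grik2 and Grik3 the window runs across the junction to the next exon, since the exon ends 4 bases past the codon. The Grik1 window differs from that of Grik2 at 2 of 30 bases, and those of Grik3, Grik4 and Grik5 at 8 each. Transcripts of Grik1 and Grik2 are edited at this codon in the brain, so that a share of the protein carries arginine. Gene counts do not separate edited from unedited transcripts, and the degree of editing was not analysed here.

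Values are normalized counts, that is, reads on constitutive regions of a gene divided by 1 size factor per library. Libraries held 51010687 to 80226984 reads on genes. Differences were tested with limma on log2(normalized count + 1). The fit held 31171 genes, those whose mean reached 10 in either genotype, and all 7 genes passed this filter. Replicates came from different brains, and their numbers were 1, 3, 4 and 5 in controls and 2, 3, 4 and 5 in mutants. The library labelled control replicate 1 stood apart from the others. It had the fewest genes above 0 (28247, against 31141 to 34364), the lowest Spearman correlation with the median of the other libraries (0.913, against 0.942 to 0.963) and an Erbb4 count of 1640, below the 1711 and 1648 of mutant replicates 2 and 3. Erbb4 ran from 3034 to 5377 in the other controls and from 1048 to 1711 in mutants (log2 fold change -1.25, standard error 0.34). Values that moved clearly when control replicate 1 was left out are given both ways.

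Among the primary subunits, Grik1 showed the largest difference. Grik1 (chr16:87895897-88290372) had normalized counts of 4266, 5248, 3978 and 2073 in control replicates 1, 3, 4 and 5. In mutant replicates 2 to 5 it had 2472, 2807, 1780 and 1504. The 3 highest values were all from controls, but control replicate 5 lay below mutant replicates 2 and 3. The means were 3891 ± 1329 (SD, n = 4) in controls against 2141 ± 603 (SD, n = 4) in mutants. The log2 fold change was -0.83 (standard error 0.31, 95% interval -1.51 to -0.15), with an unadjusted limma p of 0.021 and a Benjamini-Hochberg adjusted limma p of 0.58 over all genes tested. Without control replicate 1 it was -0.76 (unadjusted limma p of 0.049). The p rose above 0.05 without control replicate 3 (-0.66, unadjusted limma p of 0.065), mutant replicate 4 (-0.75, p of 0.053) or mutant replicate 5 (-0.67, p of 0.065).

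Grik2 (chr10:49093335-49788755), a primary subunit gene widely expressed in the forebrain, had 3726, 4430, 3115 and 2289 normalized counts in controls and 3203, 2389, 2031 and 1644 in mutants, in the same order of replicates. Control replicate 5 again fell within the mutant range, and mutant replicates 2 and 3 fell within the control range. The means were 3390 ± 910 (SD, n = 4) and 2317 ± 664 (SD, n = 4). Its log2 fold change was -0.55 (standard error 0.26, 95% interval -1.13 to 0.03, unadjusted limma p of 0.062), short of both thresholds. It passed both without control replicate 5 (-0.73, unadjusted limma p of 0.019) or without mutant replicate 2 (-0.72, p of 0.023).

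Grik3 (chr4:125490696-125714173), which encodes a subunit of low glutamate sensitivity, was the least abundant of the 7 genes. Controls had 29.99, 660, 582 and 411 normalized counts and mutants had 351, 333, 329 and 230. The 29.99 of control replicate 1 came from 22 reads. The other controls lay above all 4 mutants. The means were 421 ± 280 (SD, n = 4) and 311 ± 54.5 (SD, n = 4), and the log2 fold change of 0.22 had the opposite sign to the difference of these means (standard error 0.82, 95% interval -1.60 to 2.03). Without control replicate 1, Grik3 was lower in mutants by both thresholds (log2 fold change -0.81, unadjusted limma p of 0.019). The count models edgeR and DESeq2 each gave -0.42 with all 8 libraries, so the direction of Grik3 turned with 1 library and with the test.

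The secondary subunits were nearly level. Grik4 (chr9:42520412-42944499) had 1127, 1402, 1267 and 1474 normalized counts in controls and 1461, 1158, 1272 and 960 in mutants. The means were 1318 ± 153 (SD, n = 4) and 1213 ± 210 (SD, n = 4), and the highest control and highest mutant were almost equal. The log2 fold change was -0.13 (standard error 0.21, 95% interval -0.59 to 0.33, unadjusted limma p of 0.55). Grik5 (chr7:25009853-25072369), whose product is the usual partner of GluK2, had 7866, 8853, 10385 and 15115 normalized counts in controls. The mutant values were 10567, 10559, 8901 and 10400, all within the control range. The means were 10555 ± 3212 (SD, n = 4) and 10107 ± 808 (SD, n = 4). The log2 fold change was -0.02 (standard error 0.22, 95% interval -0.51 to 0.47, unadjusted limma p of 0.93) and this interval ran from 0.70-fold to 1.39-fold of the control level. In controls Grik5 was highest in replicate 5, where Grik1, Grik2 and both Neto genes were lowest.

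Both auxiliary subunit genes had lower means in mutants, and Neto1 was called. Neto1 (chr18:86394951-86505455) had 3076, 3347, 2630 and 2074 normalized counts in controls and 1853, 2588, 1635 and 1198 in mutants. Mutant replicates 2, 4 and 5 lay below every control, and mutant replicate 3 was above control replicate 5. The means were 2782 ± 557 (SD, n = 4) and 1818 ± 581 (SD, n = 4). The log2 fold change was -0.64 (standard error 0.26, 95% interval -1.22 to -0.07, unadjusted limma p of 0.031, adjusted p = 0.58). The p rose above 0.05 without control replicate 1 (-0.59, unadjusted limma p of 0.063), control replicate 3 (-0.55, p of 0.080), mutant replicate 4 (-0.61, p of 0.065) or mutant replicate 5 (-0.46, p of 0.10). Neto2 (chr8:85636718-85700924) varied most among controls after Grik3, with 2444, 6765, 4154 and 2417 normalized counts. Mutants had 3080, 3347, 1946 and 1978. Only control replicates 3 and 4 lay above all mutants. The means were 3945 ± 2048 (SD, n = 4) and 2588 ± 731 (SD, n = 4), and the log2 fold change was -0.52 (standard error 0.34, 95% interval -1.27 to 0.24, unadjusted limma p of 0.16). It was -0.70 without control replicate 1 (unadjusted limma p of 0.073) and -0.21 without control replicate 3 (unadjusted limma p of 0.48).

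**Figure D1:**
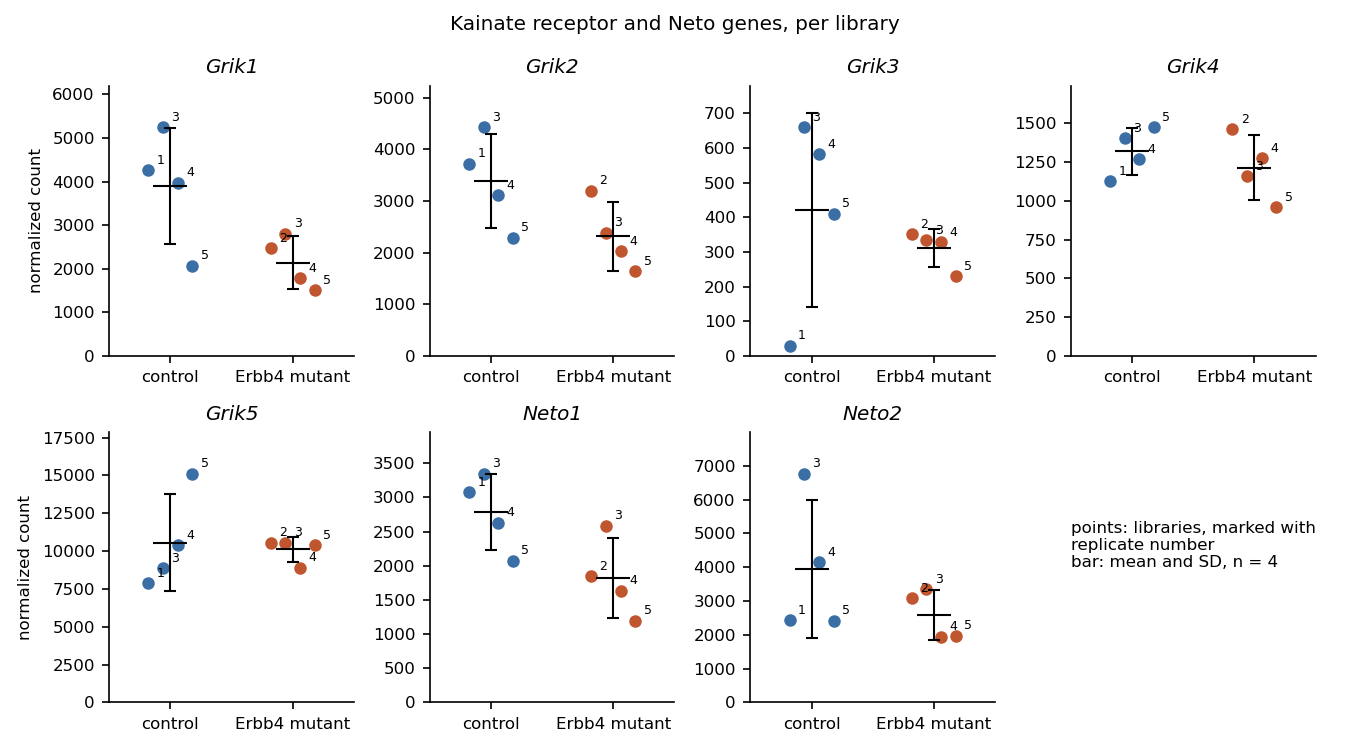
Normalized counts (y axis, linear from 0) of the 7 genes in each control library (blue) and Erbb4 mutant library (orange); the small digits give the replicate number and the black marks the mean and SD of 4 libraries. Grik1 and Neto1 have their 3 highest values in controls, the Grik5 mutants sit between 8901 and 10567 inside the control range, and control replicate 1 is near 0 for Grik3.

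Of the 7 genes, 2 were called lower and 0 higher, against 3.17% of all genes tested called lower and 7.15% called in either direction. Control and mutant values were fully apart for 0 of the 7, against 4.93% of all genes. No member passed an adjusted p of 0.05 in limma, edgeR or DESeq2, where 0.0449% of all genes passed in limma. At an unadjusted p under 0.05, 2 of the 7 passed in each of the 3 tools, where 8.33% of all genes passed in limma. The 3 tools used the same 8 libraries. A two-sided exact permutation test of the mean log2 values of each gene alone gave p = 0.057 for Neto1, 0.086 for Grik1, 0.14 for Grik2 and 0.34 for Neto2. The same exact test gave 0.49 for Grik4 and 1 for Grik3 and Grik5, and a comparison of 4 with 4 libraries cannot go below 0.029. The median log2 fold change over the 7 genes was -0.52, with 6 of them below 0, while that of all genes tested was 0.06 with 46.6% below 0. Without control replicate 1 the median was -0.59, and the 2 genes called lower were Grik1 and Grik3, in a fit that called 4.85% of all genes either way. By role, the medians were -0.55 for the 3 primary, -0.07 for the 2 secondary and -0.58 for the 2 auxiliary subunit genes, and without control replicate 1 they were -0.76, -0.17 and -0.64. Whether the roles differ from each other was not tested.

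**Figure D2:**
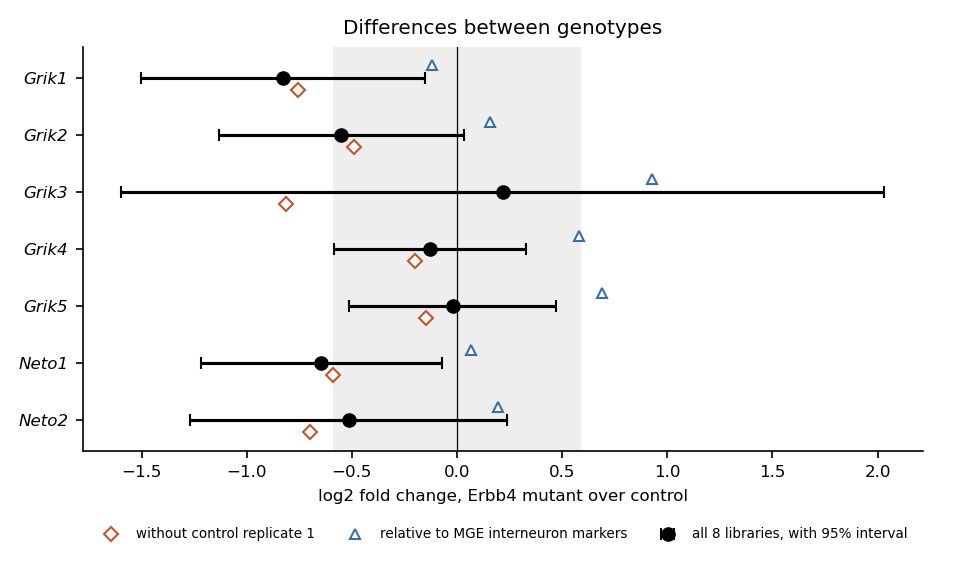
Log2 fold change of Erbb4 mutants over controls (x axis) for each gene, with all 8 libraries and the 95% interval of the limma fit (black), without control replicate 1 (diamonds) and relative to the mean of 13 MGE interneuron markers (triangles). The grey band spans changes under 1.5-fold; Grik1 and Neto1 lie outside it with intervals below 0, Grik3 changes side without control replicate 1, and all values move up when set against the markers.

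The defining genes of MGE-derived interneurons were present, with none of 13 markers at 0 in any library. All 13 had log2 fold changes below 0 with a median of -0.79, and 2 were called lower (-0.85 and 1 called lower without control replicate 1). Their summed normalized counts ran from 119485 to 407941 in controls and from 58077 to 199581 in mutants. The median was -1.10 over the 9 PV+ markers tested, of which 4 were called lower (-1.08 and 2 without control replicate 1). Their sums ran from 36294 to 163806 in controls and from 20344 to 56783 in mutants. Over 10 SST+ markers the median was -1.32 and 1 was called lower (-1.11 and 1 without control replicate 1). Their sums were 73587 to 591741 in controls and 21627 to 239680 in mutants. No PV+ or SST+ marker was at 0 in any library. Each gene was also described by its profile, the 8 log2(normalized count + 1) values with their own mean subtracted. The root mean square distance between a profile and the mean profile of the 13 MGE markers was 0.19 for Grik1, 0.24 for Grik2, 0.25 for Neto1 and 0.27 for Neto2. These 4 distances are small for the table as a whole, since 0.462% of the 31171 genes lay as close as Grik1 and 1.80% as close as Neto2. The distances of Grik4, Grik5 and Grik3 were 0.55, 0.72 and 1.37. The profiles are a description over 8 libraries that share the genotype difference.

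**Figure D3:**
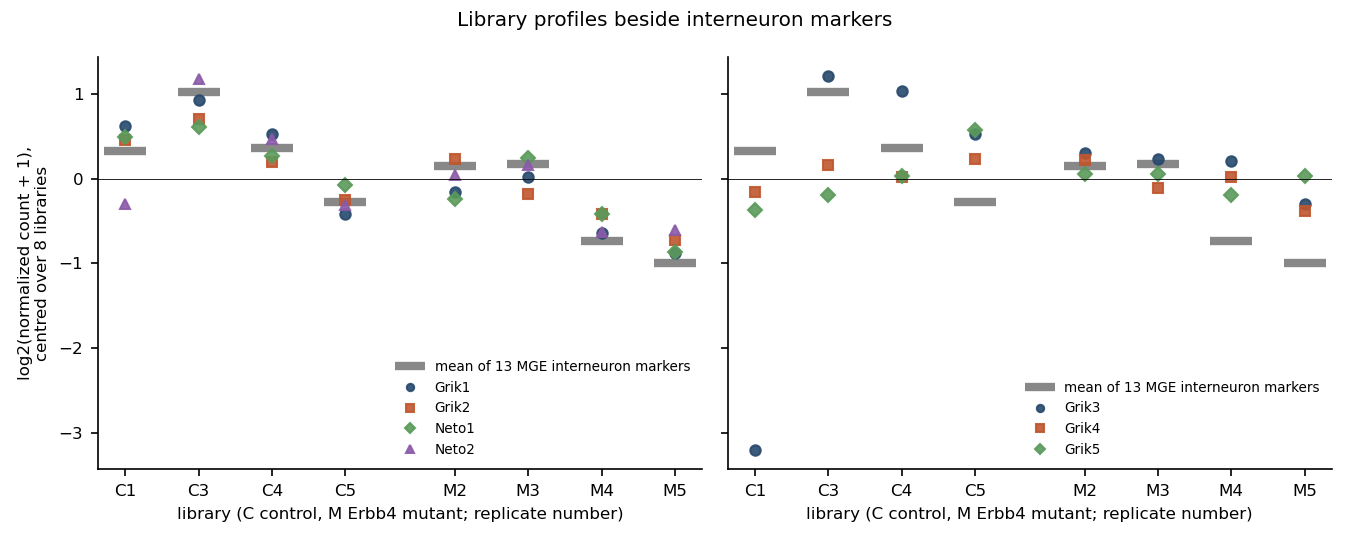
Log2(normalized count + 1) of each gene with its mean over the 8 libraries subtracted (y axis), for 4 control (C) and 4 Erbb4 mutant (M) libraries named by replicate number, with grey bars for the mean of 13 MGE interneuron markers. Grik1, Grik2, Neto1 and Neto2 (left) mostly lie near the bars, but on the other side of 0 in C1 for Neto2 (-0.30), in M2 for Grik1 (-0.16) and Neto1 (-0.24) and in M3 for Grik2 (-0.19), whereas Grik4 and Grik5 (right) range from -0.39 to 0.57 and Grik3 falls to -3.20 in C1.

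Set against the mean of the 13 markers, a scaling chosen after the data were seen that moved the median of all genes tested to 0.76, no member was called. On that scale the log2 fold change was -0.12 for Grik1 (unadjusted limma p of 0.72), 0.06 for Neto1, 0.16 for Grik2 and 0.19 for Neto2. The values of Grik4, Grik5 and Grik3 were 0.58, 0.69 and 0.93. The markers belong to the same tagged cells, so this scale shows a difference relative to them and not a level. Medians of markers of cells outside the lineage were not all near 0 either. Oligodendrocyte markers had a median of -0.62 over 10 genes, of which 3 were called lower (-0.34 and 0 called lower without control replicate 1), with sums of 229955 to 673772 in controls and 202878 to 287269 in mutants. Endothelial and mural markers had a median of 0.54 over 10 genes, of which 4 were called higher (0.39 and 1 called higher without control replicate 1), with sums of 174080 to 274713 and of 267749 to 287980. The medians were -0.60 over 9 markers of interneurons from the caudal ganglionic eminence, -0.44 over 10 of microglia, -0.31 over 7 of oligodendrocyte precursors, -0.15 over 11 of excitatory neurons and -0.11 over 10 of astrocytes. Without control replicate 1 these medians were -0.33, -0.23, -0.19, -0.22 and -0.00099, in the same order. No marker of these lists was at 0 in any library, and their part in the values of the kainate receptor genes was not tested.

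Levels can be compared between genes only per length, and normalized counts were divided by the merged exon length of each gene in GENCODE M21. Grik5 had the highest level, 2805 ± 854 normalized counts per kb (SD, n = 4) in controls against 2686 ± 215 (SD, n = 4) in mutants. Grik1 followed with 920 ± 314 and 506 ± 142, and Neto2 with 667 ± 346 and 437 ± 124. Neto1 had 333 ± 66.7 and 218 ± 69.5 normalized counts per kb, Grik2 had 327 ± 87.7 and 223 ± 64.0, and Grik4 had 221 ± 25.7 and 203 ± 35.2. Grik3 was lowest with 46.9 ± 31.3 and 34.6 ± 6.1. The order Grik5, Grik1, Neto2, Neto1 and the place of Grik3 below Grik4 held in all 8 libraries. Neto1 was above Grik2 in 5 of 8 libraries and Grik2 above Grik4 in 5 of 8, so these neighbours were not separated. With the length of the longest transcript in place of merged exons, Grik2 came before Neto1 in the control means, and the other places were unchanged. The lengths of the constitutive regions in which the reads were counted were not used here.

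By this measure Grik5 made up most of the subunit transcripts in libraries that also held markers of cells outside the tagged lineage. Its share of the summed level per kb of Grik1 to Grik5 was 57.3%, 54.3%, 64.5% and 80.0% in controls and 70.5%, 71.4%, 73.2% and 79.8% in mutants. The primary subunits together held 37.6%, 40.2%, 30.5% and 15.1% in controls and 23.4%, 23.7%, 20.2% and 15.6% in mutants. Control replicates 1, 3 and 4 thus had larger primary shares than every mutant, while control replicate 5 had the smallest of all 8 libraries. The mean share of Grik1 was 22.01% ± 8.68 (SD, n = 4) in controls against 13.71% ± 2.79 (SD, n = 4) in mutants. Grik2 held 7.78% ± 2.62 and 6.06% ± 1.30, and Grik4 held 5.13% ± 0.23 and 5.58% ± 0.94, within the spread of the libraries. Of the 2 auxiliary subunits, Neto2 had the higher level in all 8 libraries, with 64.54% ± 9.17 (SD, n = 4) of their sum in controls against 66.85% ± 3.78 (SD, n = 4) in mutants.

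**Figure D4:**
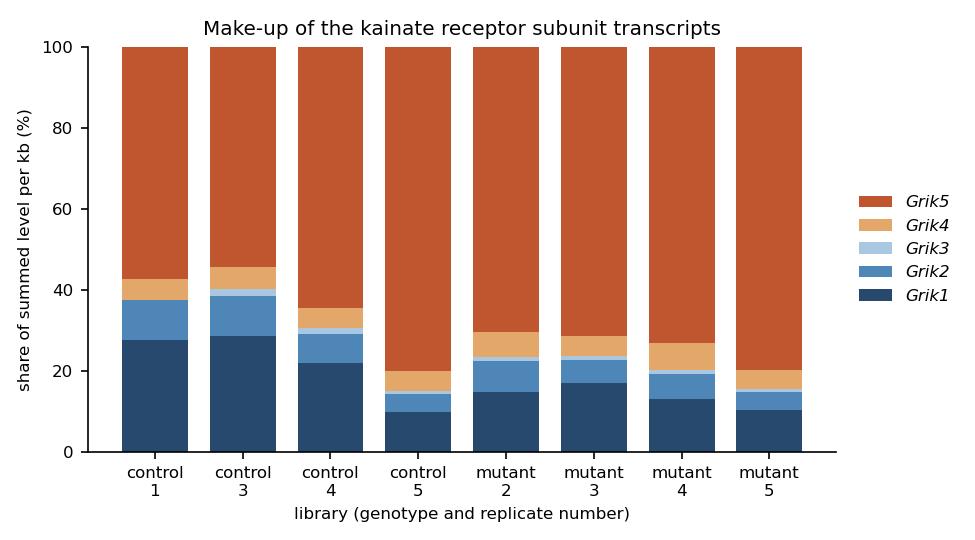
Share of each subunit gene in the summed normalized count per kb of Grik1 to Grik5 (y axis, percent) in each of the 8 libraries. Grik5 takes 54.3% to 80.0% of the sum, and the blue primary subunits are largest in control replicates 1, 3 and 4 and smallest in control replicate 5.

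A list of 18 genes whose products bind, modify or move kainate receptors was read next, of which 17 were tested. Kif17, a kinesin motor, appears in the table under a symbol shared with Sh2d5 and was not used. Of the 17, 2 were called lower and 0 higher, against 3.17% of all genes tested called lower and 7.15% called either way. The log2 fold change was below 0 for 10 of the 17, against 46.6% of all genes. The median was -0.12, against 0.06 over all genes. Grip1, a PDZ scaffold that binds AMPA and kainate receptor subunits, had 1192, 1254, 1411 and 1238 normalized counts in controls and 671, 814, 760 and 921 in mutants. Every mutant lay below every control, a separation found either way in 4.93% of all genes tested. The log2 fold change was -0.69 (standard error 0.20, unadjusted limma p of 0.0051, adjusted p = 0.58), and Grip1 is also on a gene list that the study drew from these libraries, so its direction is not independent evidence. Snap25, a SNARE protein that takes part in the removal of GluK5-containing receptors from synapses, had 13558, 14836, 7531 and 4830 normalized counts in controls and 7209, 5330, 4936 and 4559 in mutants. Control replicate 5 lay below mutants 2, 3 and 4. Its log2 fold change was -0.77 (standard error 0.34, unadjusted limma p of 0.044). The call was lost without control replicate 1 (-0.59, unadjusted limma p of 0.12) or control replicate 3 (-0.54), and without mutant replicate 3, 4 or 5 (-0.76, -0.72 and -0.69), whereas Grip1 stayed called in all 8 fits that left out a library.

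The other partners named by rule were not called. Klhl24, whose product binds GluK2, had the next largest difference, a log2 fold change of 0.65 (standard error 0.38, unadjusted limma p of 0.12). Control replicate 1 had 2131 normalized counts of it, against 7170 to 8021 in the other controls and 7261 to 11278 in mutants, and without it the log2 fold change was 0.19. Adarb1, the enzyme that edits the Q/R codon of Grik1 and Grik2 printed above, had 905, 1799, 2012 and 2470 normalized counts in controls and 1533, 1375, 2045 and 1811 in mutants. All 4 mutants lay within the control range, and the log2 fold change was -0.01 (standard error 0.30), or -0.31 (standard error 0.21) without control replicate 1. Cask and Prkca, a scaffold and a kinase, had log2 fold changes of 0.10 and 0.11, or 0.07 and -0.15 without control replicate 1. The secreted ligands C1ql2 and C1ql3 gather kainate receptors at hippocampal mossy fibre synapses. For C1ql3 the log2 fold change was -0.20 (standard error 0.20). C1ql2 was scarce, with 158, 67.7, 78.1 and 4.95 normalized counts in controls and 139, 101, 73.8 and 0 in mutants, and its log2 fold change of -0.57 (0.01 without control replicate 1) had a standard error of 1.57.

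**Figure D5:**
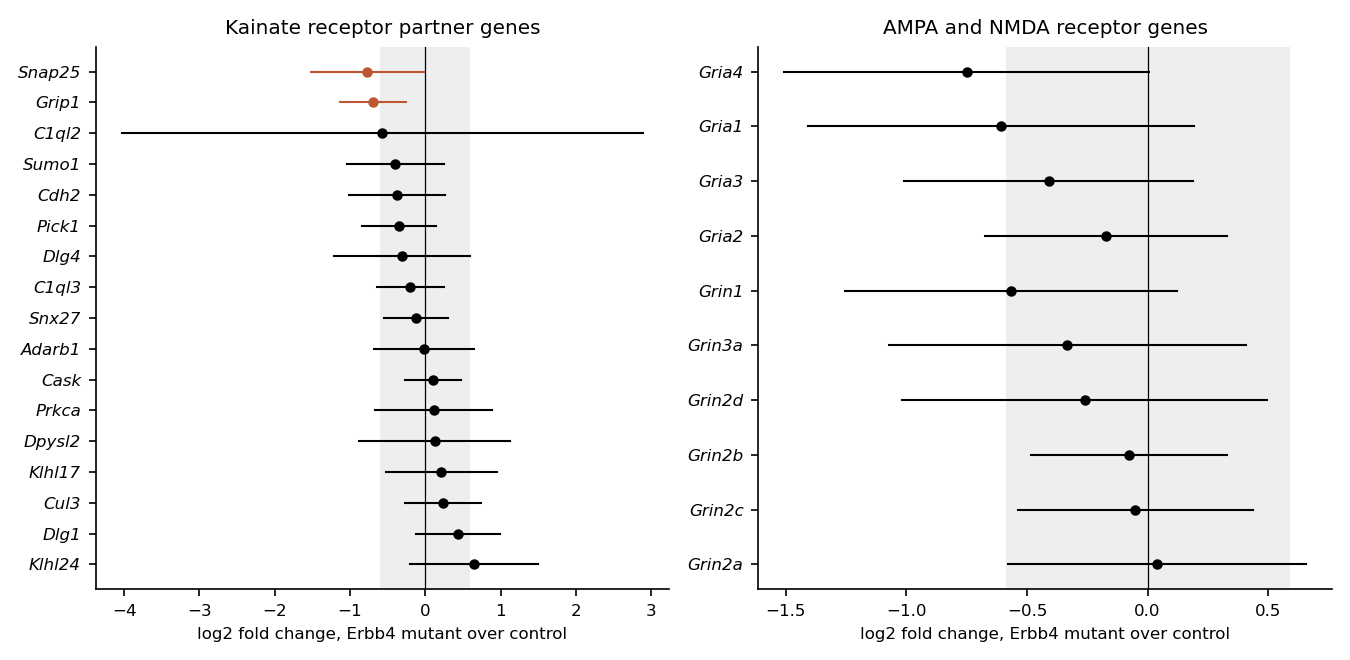
Log2 fold changes of Erbb4 mutants over controls (x axis) with 95% intervals from limma, for the 17 kainate receptor partner genes tested (left) and the AMPA and NMDA receptor genes (right); the x axes differ in scale, the grey band spans changes under 1.5-fold, and called genes are orange. Snap25 and Grip1 are the called genes, and the interval of C1ql2 runs widest.

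Of the 10 AMPA and NMDA receptor genes tested, 0 were called in the limma fit, where 7.15% of all genes were called either way. Gria4 is among the genes that the study, with DESeq2 and the same thresholds, found lower in mutants in these libraries. Its direction here is thus not independent evidence. Grin2d, named here after its values were seen, was called lower without control replicate 1 (-0.60). That fit called 4.85% of all genes either way. The 4 AMPA receptor genes had log2 fold changes of -0.75 to -0.17 with a median of -0.51, the largest in Gria4, a subunit abundant in PV+ interneurons (standard error 0.34, unadjusted limma p of 0.051). The 6 NMDA receptor genes tested ran from -0.57 to 0.04 with a median of -0.17, or -0.39 without control replicate 1, and Grin1, the obligatory subunit, had the largest. The 5 Grik genes ran from -0.83 to 0.22 with a median of -0.13, or -0.49 without control replicate 1. A difference between the families was not tested.

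Genes with the most alike profiles were sought among 18119 genes whose mean reached 100 normalized counts in both genotypes. The measure was the root mean square difference of centred log2 values over the 8 libraries. The closest gene was Prkcsh for Grik1 (0.08), Dld for Grik2 (0.08), Ptprj for Grik3 (0.32), Tmcc2 for Grik4 (0.11), Agtrap for Neto1 (0.04) and Atp2a2 for Neto2 (0.11). For Grik5 the closest was a gene without a symbol (0.08), and Amer1 was the closest with one (0.10). Among the members themselves, Grik1 and Neto1 were closest to each other (0.22), and Grik4 and Grik5 to each other (0.27). Grik2 was closest to Neto1 (0.24) and Neto2 to Grik1 (0.36). Many other genes were closer, since the nearest member ranked from 227 (Grik1 for Neto1) to 3112 (Neto2 for Grik3) among the genes compared.

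Other rows of the table lie over the span of 6 of the 7 genes, and the sources used here do not state whether reads were counted by strand. Grik1 had 11 such rows, the largest with a mean normalized count of 188, and Grik2 had 13, the largest with 370. Grik4, Neto1 and Neto2 had 2 each, with means of at most 38.4. The single row over Grik3, named Mir692-2 // Mir692-3, had a mean of 5585, well above Grik3 itself. Grik5 had none.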

How the data were processed

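Ribosome-associated RNA was analysed from 4 control and 4 Erbb4 conditional mutant libraries, grouped by genotype from the sample labels. The authors deposited a signal, normalized counts per gene: reads were aligned with STAR 2.4.0 to mm10, counted on constitutive gene regions (Mouse Fast DB) and scaled by DESeq2 size factors. RNA input was low and amplified, and strand use is not given in the sources used here. Division by the smallest value above 0 recovered whole reads (tolerance 0.001) for 100% of values.

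Genes were tested with limma 3.58.1 (lmFit, eBayes with trend, R 4.3.3) on log2(normalized count + 1) without covariates, which understates changes of low genes. The study's thresholds (unadjusted p of at most 0.05, 1.5-fold) made a call, and adjusted p is Benjamini-Hochberg over all genes tested. On recovered reads edgeR 4.0.16 and DESeq2 1.42.0 were alternatives, and the procedure was tested on simulated data. The closing section gives the other alternatives. The members and lists were chosen with earlier results of these data known. Named partners are those called, the 3 largest and 3 smallest differences, and C1ql2, C1ql3 and Adarb1. Among AMPA and NMDA receptor genes the largest of each family was named, and for each member the gene with the most alike profile. The labels do not tie libraries to sequencing batches, so no comparison within a batch was made.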

Additional observations from a re-analysis of the deposited data

Results flagged for a closer look

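Grik5 in mutant replicate 4 had 8901 normalized counts, apart from the 10400 to 10567 of the other mutants, which made it 1 of 14 groups of 4 libraries with a sample far from the rest. Chance gives about 1 in 20 such groups, or 0.7 of these 14. Without mutant replicate 4 the log2 fold change of Grik5 was 0.04, against -0.02 with it, and it was called in neither fit.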

How the results depend on the processing

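Of the 7 genes, 2 were called lower in the fit reported above. The count was 0 with limma without trend and 0 with calls at an adjusted p under 0.05. At an unadjusted p under 0.05, 2 of the 7 passed in each of limma, edgeR and DESeq2, against 8.33% of all genes in limma. The count was 4 with library weights and 0 relative to the MGE interneuron markers, a scaling added after the data were seen. The fits with library weights and relative to the markers called 11.6% and 14.1% of all genes either way. Limma without trend called 5.83% and the reported fit 7.15%. Leaving out each library in turn gave 0 to 3 called lower. The count was 0 without control replicate 3, mutant replicate 4 or mutant replicate 5. Those fits called 5.54%, 3.83% and 3.95% of all genes either way. The count was 3 without control replicate 5 or mutant replicate 2, in fits that called 12.1% and 7.99% of all genes. Over the fits that left out a library, the median log2 fold change ran from -0.71 to -0.21 (-0.21 without control replicate 3). It was 0.19 relative to the markers. Of the partner genes, 2 were called in the reported fit, 1 with limma without trend, 0 at an adjusted p under 0.05, and 1 to 2 without each library (1 without control replicate 1 or 3 or mutant replicate 3, 4 or 5). No member was called higher under any alternative.

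The direction of Grik3 turned to -0.54 with library weights, -0.42 with edgeR and -0.42 with DESeq2, and ran from -0.81 to 0.66 without each library. Grik5 was 0.026 after quantile normalization and 0.0017 with TMM scaling, and ran from -0.15 to 0.17 without each library. Relative to the markers Grik2 was 0.16, Grik4 0.58, Grik5 0.69, Neto1 0.065 and Neto2 0.19. The cause of these changes was not tested. Under the alternatives other than the marker scaling, the single genes kept their direction and side of the threshold in 109 comparisons, turned direction in 9, gained a call in 8 (2 of them, in Grik3, among those that turned) and lost it in 9.

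Same-numbered libraries came from different brains and were not taken as pairs. Over genes with a mean of at least 100, deviations from genotype means correlated between control 3 and mutants 2 and 3 (0.24, 0.25). So did those of controls 4 and 5 and mutants 4 and 5 (0.20 to 0.24), and pairs across these sets gave -0.32 to -0.17. Over all genes the values were 0.08 to 0.10 and -0.12 to -0.06. The reported fit ignores this grouping. With the replicate number as a block, which called 10.2% of all genes either way, 5 of the 7 genes were called lower. These were Grik1 (-0.84), Grik2 (-0.66), Grik3 (-0.88), Neto1 (-0.62) and Neto2 (-0.80), with an unadjusted limma p from 0.0039 to 0.018. Grik4 was at -0.30 and Grik5 at -0.17. Control replicate 1, with which the direction of Grik3 turned, and mutant replicate 2 have no partner of their number. The block values thus rest on numbers 3, 4 and 5.

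Every member had at least 1207 reads per library, except Grik4 (827 or more) and Grik3 (22 or more). The comparisons rest on 4 libraries a genotype. How much of the spread between them came from counting or from the low, amplified RNA input was not tested.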
